A study of Mus musculus with 16 samples.

Results

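Respiratory complex I was described through 40 nuclear genes that encode its subunits and assembly factors, chosen by name out of the 28972 genes measured in mouse skeletal muscle. The 28972 include transcripts without a gene symbol, which were counted under their own identifiers. The 40 genes were found on the array through the RefSeq accession of each probe, and 47 probes matched: 33 genes had 1 probe, and 7 had 2. The 40 genes comprise 6 core subunits, 28 accessory subunits, the acyl carrier protein Ndufab1, 4 assembly factors (Ndufaf1 to Ndufaf4), and Ndufa4, which was first counted as a subunit of complex I and is now placed in complex IV. Every one of the 40 stood well above background on all 16 arrays.

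Complex I is the entry point of the mitochondrial respiratory chain. It takes electrons from NADH, passes them along a chain of iron-sulfur clusters to ubiquinone, and uses the energy to pump protons across the inner mitochondrial membrane. The core subunits do this chemistry, the accessory subunits surround and stabilise the core, and the assembly factors help to build the complex and leave it afterwards. Skeletal muscle holds much of it, above all in its oxidative fibres.

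The study compared male mice aged 21 to 23 weeks in 4 groups of 4 samples, with 1 one-colour Agilent array of total muscle RNA per sample. The labels do not say that the replicates of a group came from separate animals, so p-values measure the spread between these samples, which may be partly technical. Wild-type (WT) mice are littermates with the labelled genotype Skm-CB1R+/+. The CB1KO mice, Skm-CB1R-/-, carry a loxP-flanked Cnr1 gene, which encodes the cannabinoid 1 receptor, and Cre driven by the ACTA1 promoter, which is active in skeletal muscle fibres and leaves other cells of the tissue with an intact gene. Mice of each genotype ate for 15 weeks either the standard diet, SD, with 16.7% of its energy from fat and 12.4% from sugar, or a diet rich in both, HFHS, with 49.2% and 32.2%. The groups are written WT_SD, CB1KO_SD, WT_HFHS and CB1KO_HFHS. The protocol text names both genotypes as Cre+, and also mentions assignment to vehicle or S961 without saying which of these was given. It does not name the muscle. The diet tag disagrees with the titles for 2 of the groups, and titles were followed.

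The array values are log2 intensities minus the 75th percentile of the same array, here called scaled log2 signal. The share of spots well above background was 56.7% to 75% over the arrays, and no spot was saturated. CB1KO_SD replicate 2 and CB1KO_HFHS replicate 1 stood apart in the spread of their signal (SD of log2 signal 2.89 and 3.97, against 3.14 to 3.69 elsewhere), and the medians and counts that rest on them are given with and without them. The scan dates in the file headers fell into 2 sets, each taken here as 1 slide. All SD arrays were in 1 set and all HFHS arrays in the other, which leaves diet inseparable from slide. On both slides all WT arrays lay in row 1 and all CB1KO arrays in row 2. Genotype is therefore inseparable from the row on the slide. The scaled log2 signal of Cnr1 was -3.46 to -1.85 in WT_SD, -3.54 to -2.01 in CB1KO_SD, -2.98 to -1.55 in WT_HFHS and -2.75 to -1.24 in CB1KO_HFHS. These ranges overlap, and the probe's place relative to the deleted part is not given in the sources used here, so the genotype labels were not checked by this gene and are taken as given. All 5 muscle fibre markers were well above background on every array, with a summed level of 10.73 to 11.47.

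On HFHS, 38 of the 40 complex I genes had a lower mean signal in CB1KO than in WT muscle, with a median difference of -0.26 on the log2 scale, beside -0.13 for all 28972 genes, of which 67.7% were below 0. None passed the test: 0 of 40 reached an adjusted p of 0.05 (limma, Benjamini-Hochberg over all genes), where 0.235% of all genes did. The smallest adjusted p was 0.329. At an unadjusted p of 0.05, 13 of 40 were lower and 0 higher, against 5.48% lower and 3.48% higher among all genes. In 13 genes, all CB1KO_HFHS arrays lay below all WT_HFHS arrays, where 6.71% of all genes showed the same; 0 members were separate in the other direction, against 3.36%. In RNA of whole tissue, fewer cells of a type and less RNA per cell cannot be told apart. All 6 macrophage markers had a higher mean in CB1KO on HFHS, but 0 were called (limma, lowest adjusted p = 0.46; 1 of 6 at an unadjusted p under 0.05), and their summed level was 4.10 to 5.31 in WT_HFHS and 4.76 to 6.26 in CB1KO_HFHS, with overlap. Their part in the complex I values was not tested. On SD, in contrast, the median difference of the 40 genes was -0.03, against -0.12 for all genes.

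Some sequence is shown next for those members whose HFHS groups did not overlap, because the 40 genes tended to be high or low on the same arrays and their promoters can be read side by side. RefSeq promoter entries (build GRCm38.p6, 250 bases before to 50 after the start of the gene) were found for 37 of the 40. A nuclear respiratory factor 1 (NRF1) motif, GCGCATGCG or its reverse complement, was in 3 of these (8.11%) and in 1.95% of all 27025 genes of the table. The other carrier, Ndufaf4, had HFHS groups that overlapped and is not shown. In Ndufa11 and Ndufa8 the motif lies close to the start, and the 140 bases that end just before the start are printed with it in capitals.

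Ndufa11, chr17:56717622-56717761, plus strand: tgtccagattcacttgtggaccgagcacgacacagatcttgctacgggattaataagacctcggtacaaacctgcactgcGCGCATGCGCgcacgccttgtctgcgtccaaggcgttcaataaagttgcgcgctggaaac

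Ndufa8, chr2:36049339-36049478, minus strand: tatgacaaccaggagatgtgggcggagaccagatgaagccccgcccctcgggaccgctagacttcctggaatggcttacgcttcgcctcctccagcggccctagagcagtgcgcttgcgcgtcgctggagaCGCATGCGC

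In Ndufa11 the motif starts 60 bases before the gene's start and reads the same on both strands, so 2 overlapping matches are 1 stretch. In Ndufa8 it starts 9 bases before the start, on the other strand. The motif of the estrogen-related receptor alpha (ERR alpha), AAGGTCA, was found in 3 promoters (8.11%, against 5.38% of all genes). In Ndufb4 it lies 55 bases before the start, and in Ndufs5 228 bases before it and on the other strand. The other carrier, Ndufb2, had a higher mean in CB1KO than in WT on HFHS and is not shown. The matches of Ndufb4 and Ndufs5 are printed with 20 bases on either side.

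Ndufb4, chr16:37654397-37654443, minus strand: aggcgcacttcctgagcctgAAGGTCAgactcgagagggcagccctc

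Ndufs5, chr4:123718388-123718434, minus strand: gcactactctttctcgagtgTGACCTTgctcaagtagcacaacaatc

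The motif of YY1, AAGATGGCG, was in 5 promoters (13.5%, against 1.64% of all genes): those of Ndufa9, Ndufc1, Ndufs4, Ndufs6 and Ndufs7. In each it lay after the start of the gene, between 22 and 35 bases downstream and on the gene's own strand. The stretches of Ndufs4 and Ndufs6, both subunits with separate HFHS groups, are shown with the motif in capitals.

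Ndufs4, chr13:114388045-114388069, minus strand: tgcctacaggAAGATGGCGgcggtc

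Ndufs6, chr13:73328435-73328459, minus strand: ggtcaccggcAAGATGGCGgcggtg

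The motif of GABP, CCGGAAG, was in 5 promoters (13.5%, against 9.93%), and GGGCGG, which SP1 binds, in 19 (51.4%, against 38.2%). Both strands were searched throughout. A match is a description of letters only.

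The 6 core subunits among these genes belong to 2 modules. Ndufv1, Ndufv2 and Ndufs1 form the part that oxidises NADH, and Ndufs3, Ndufs7 and Ndufs8 belong to the part that passes electrons to ubiquinone. All 6 had a negative difference on HFHS, with a median of -0.23. Ndufs1, which carries iron-sulfur clusters, had scaled log2 signals of 7.30, 7.63, 7.70 and 7.48 on the WT_HFHS arrays. On the CB1KO_HFHS arrays it had 6.91, 7.24, 7.23 and 7.31. The highest CB1KO array exceeded the lowest WT array by a small margin, so the groups overlapped, and the difference was -0.35 ± 0.15 (SE; adjusted p = 0.51). Ndufs8, which also carries iron-sulfur clusters, had 4.93, 5.27, 5.53 and 5.01 in WT_HFHS and 4.60, 5.02, 4.71 and 4.88 in CB1KO_HFHS. One array of CB1KO_HFHS, replicate 2, lay within the WT range, and the difference was -0.39 ± 0.17 (adjusted p = 0.531). Ndufv1, the NADH-binding subunit, had a difference of -0.23 and Ndufv2 one of -0.06, the smallest of the core. For Ndufv2, WT_SD replicate 1 has no value because its spot was an outlier, and the fit drops that array for this gene.

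The matrix arm carries 9 of the accessory subunits and is the part that reaches into the mitochondrial matrix. All 9 had negative differences on HFHS, from -0.41 to -0.15, and in 3 of them (Ndufv3, Ndufs4 and Ndufs6) the groups did not overlap. Ndufv3, which rests on the NADH-oxidising tip, had 7.68, 7.82, 7.84 and 7.91 in WT_HFHS. In CB1KO_HFHS it had 7.53, 7.47, 7.31 and 7.28. All 4 CB1KO arrays thus lay below all 4 WT arrays; the group means were 7.81 ± 0.10 and 7.40 ± 0.12 (SD, n = 4 each), a difference of -0.41 ± 0.14 (-25%), with an adjusted p of 0.376. The 2 probes of Ndufv3 disagreed: the dimmer one gave -0.09 ± 0.31. Ndufs4, whose loss is a known cause of complex I deficiency, had 6.40, 6.77, 6.82 and 6.44 in WT_HFHS and 6.08, 6.38, 6.20 and 6.37 in CB1KO_HFHS. The gap between the groups was narrow, and the difference was -0.35 ± 0.14 (adjusted p = 0.493). Ndufs6, which lies near the junction of the 2 modules, had a difference of -0.27 ± 0.15. Ndufa2, Ndufa5, Ndufa6, Ndufa7, Ndufa9 and Ndufa12 had differences between -0.26 and -0.15, with overlapping groups.

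The proximal part of the membrane arm, next to the matrix arm, is represented by 9 accessory subunits, all with a negative difference on HFHS (-0.49 to -0.17). In Ndufa11, a membrane subunit that helps to hold the arm together, WT_HFHS arrays had 5.24, 5.49, 5.68 and 5.28. CB1KO_HFHS arrays had 4.94, 5.11, 4.99 and 5.12. No CB1KO array reached a WT array, and the difference was -0.38 ± 0.15 (-23.2%; adjusted p = 0.448). Ndufa8, a subunit on the intermembrane side, had the lowest value of the 40 genes, -0.49 ± 0.23 (adjusted p = 0.583), and was also one of the most variable, with signals of 5.37, 5.58, 5.68 and 5.56 in WT_HFHS and 4.81, 5.14, 5.28 and 5.01 in CB1KO_HFHS. Its groups did not overlap on HFHS, whereas on SD its CB1KO arrays ran from 4.57 to 5.82, around the WT arrays. Ndufs5 (-0.27 ± 0.14) and Ndufa1 (-0.23 ± 0.17) also had groups that did not overlap. Ndufa1 showed an unusually small spread in CB1KO_HFHS, 7.30 ± 0.01 (SD, n = 4).

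Of the 10 accessory subunits of the distal membrane arm, the outer end of the proton-pumping part, 9 had a negative difference on HFHS, with a median of -0.34, and 8 of them had an unadjusted p under 0.05. Ndufb9 had the smallest p of all 40 genes. Its signals were 8.18, 8.47, 8.52 and 8.32 in WT_HFHS and 7.91, 8.21, 7.96 and 7.89 in CB1KO_HFHS. Only CB1KO_HFHS replicate 2 passed the lowest WT array, and the difference was -0.38 ± 0.12 (-23.2%; adjusted p = 0.329). Ndufb7 had 7.36, 7.62, 7.86 and 7.57 in WT_HFHS and 7.08, 7.40, 7.16 and 7.27 in CB1KO_HFHS, with again 1 CB1KO array above the lowest WT array and a difference of -0.37 ± 0.13 (adjusted p = 0.392). Ndufb3, with 6.59, 6.73, 6.99 and 6.62 against 6.18, 6.50, 6.27 and 6.35, did not overlap, at -0.41 ± 0.16 (adjusted p = 0.455). The same held for Ndufb5 (-0.41 ± 0.17; its other probe gave -0.19 ± 0.17) and Ndufb4 (-0.35 ± 0.14; its other probe gave -0.37 ± 0.15). Ndufb8, Ndufb10 and Ndufb11 lay between -0.33 and -0.30, and Ndufb6 at -0.17, where its other probe gave -0.37 ± 0.16.

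Ndufb2 went the other way. Its mean was 6.32 ± 0.46 in WT_HFHS and 6.51 ± 0.16 in CB1KO_HFHS (SD, n = 4 each), a difference of 0.18 ± 0.28. WT_HFHS replicate 1 had 5.66, and the others had 6.53, 6.38 and 6.73. It was the most variable of the 40 genes, with a pooled SD within groups of 0.41, against a median of 0.19. Without WT_HFHS replicate 1 all 40 genes had a negative difference on HFHS, as did 69.4% of all genes. Ndufb2 and Ndufaf3 are described because they were the exceptions, seen after the values were known.

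Of the 4 assembly factors, 3 had a negative difference on HFHS, and their median was -0.19. Ndufaf1, which acts in building the membrane part, had 4.01, 4.03, 4.22 and 4.06 in WT_HFHS and 3.79, 3.80, 4.00 and 3.72 in CB1KO_HFHS. Those groups were separate by a narrow margin, with a difference of -0.25 ± 0.18 (adjusted p = 0.712). Ndufaf2 was separate too (-0.19 ± 0.16), with a WT_HFHS SD of only 0.03. Ndufaf4 had -0.18 ± 0.18, and Ndufaf3 0.01 ± 0.13 with an interval from -0.27 to 0.29. Among members outside these classes, Ndufab1, the mitochondrial acyl carrier protein, had -0.27 ± 0.15, and Ndufa4 -0.31 ± 0.15 with separate groups.

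**Figure D1:**
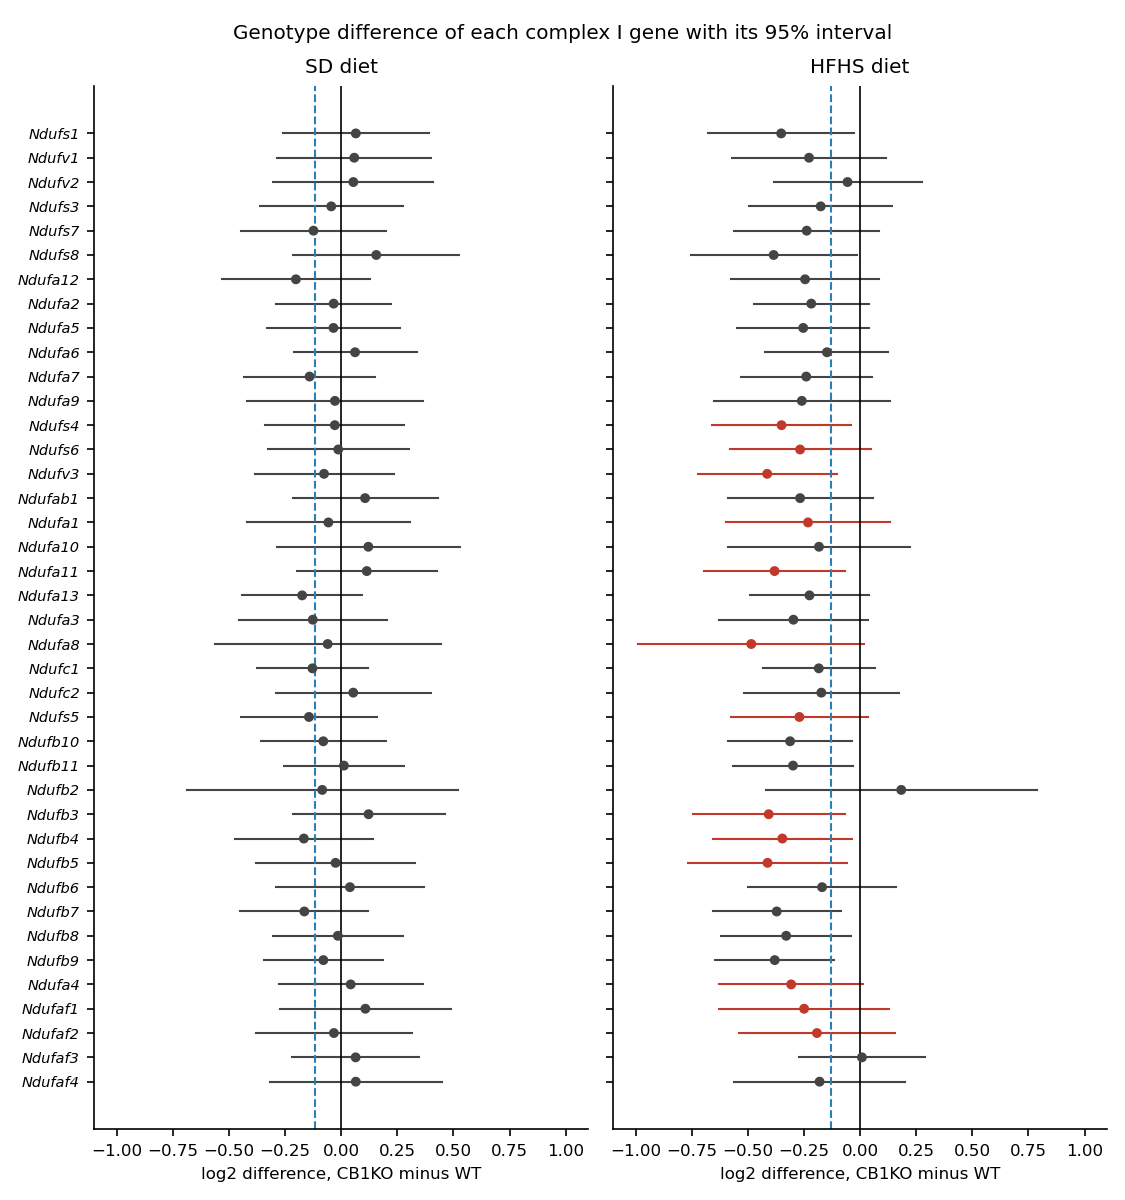
Genotype difference (CB1KO minus WT, log2 scale) of each of the 40 genes on SD (left) and HFHS (right), with 95% confidence intervals from the fit over all arrays; the dashed line is the median of all genes, and genes in red had groups of arrays that did not overlap. On HFHS 38 points lie left of 0 and 13 are red, while on SD the points lie on both sides of 0 and none is red.

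On SD the genotype comparison of the 40 genes gave 0 called, beside 0.00345% of all genes, and 0 with an unadjusted p under 0.05, beside 8.72% of all genes (limma). The differences ran from -0.20 to 0.16, and 24 were below 0, as were 67.4% of all genes. No member had separate groups, where 2.98% of all genes were separate with CB1KO lower and 0.98% with CB1KO higher. The 95% intervals reached a median of 0.32 to either side and together spanned -0.69 to 0.53. The members with the smallest p were Ndufa13 (-0.17 ± 0.12, adjusted p = 0.773), which is also known as GRIM-19, Ndufa12 (-0.20 ± 0.15), Ndufb7 (-0.16 ± 0.13) and Ndufb4 (-0.17 ± 0.14). For Ndufb7 the SD arrays had 7.53, 7.78, 7.55 and 7.64 in WT and 7.45, 7.23, 7.61 and 7.56 in CB1KO. CB1KO_SD replicate 2 was lowest. That array weighs on the whole comparison: it was below the 16-array mean for all 40 genes, and without it the median difference of the 40 on SD was 0.10, with 11 below 0, against 65% of all genes. With array weights, and with background correction and quantile normalization, 2 members were higher at an unadjusted p under 0.05, beside 4.85% and 3.65% of all genes. All 10 markers of slow fibres, an oxidative fibre type, had a higher mean in CB1KO on SD, but 0 were called (limma, lowest adjusted p = 0.508, with 4 of 10 at an unadjusted p under 0.05). Their summed level was 4.53 to 8.04 in WT_SD and 8.40 to 9.82 in CB1KO_SD. On HFHS it was 5.16 to 10.06 in WT and 5.48 to 9.48 in CB1KO. Its part in the complex I values was not tested.

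**Figure D2:**
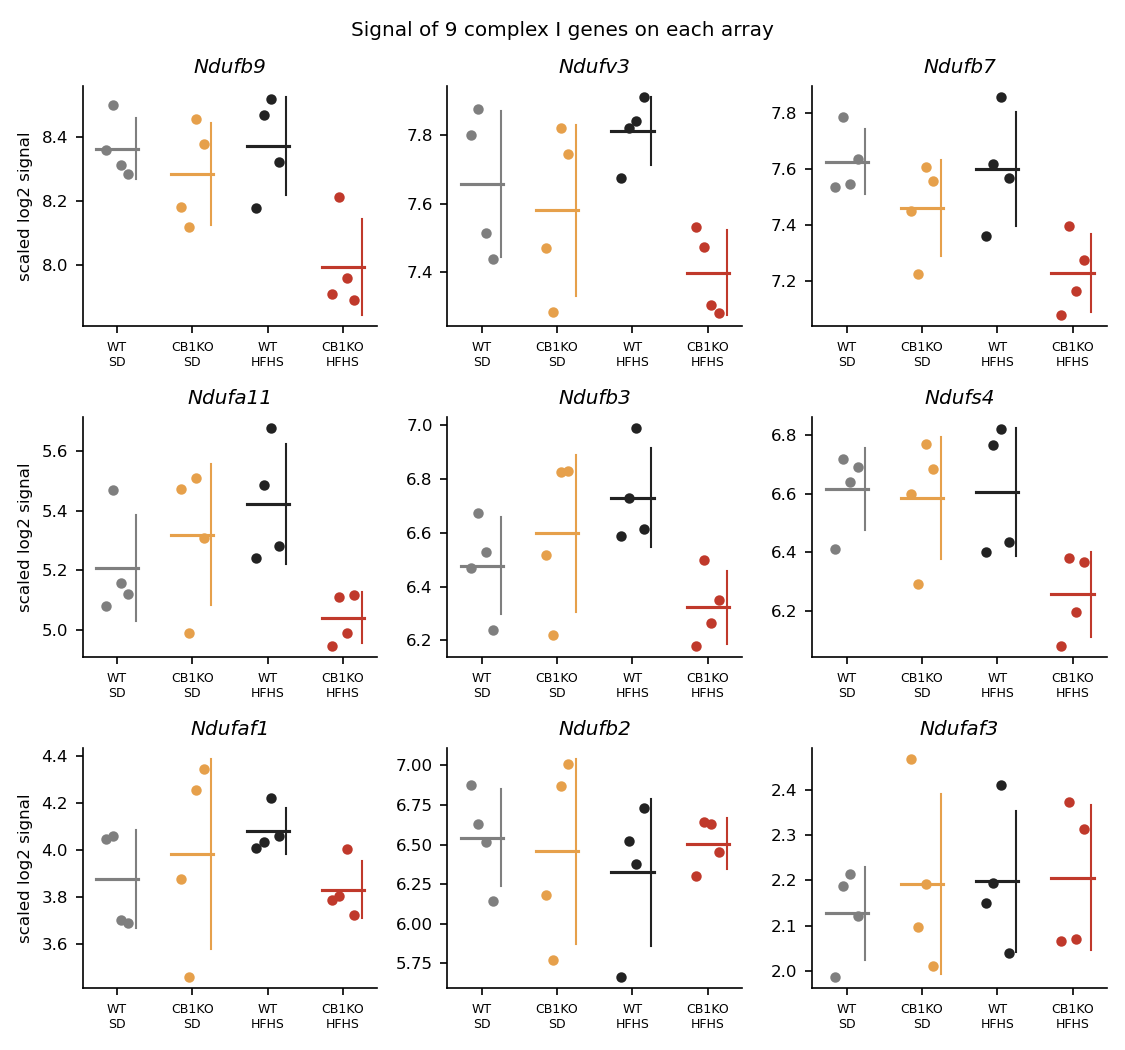
Scaled log2 signal of 9 complex I genes on every array, by group; points are arrays, horizontal lines are means and vertical lines are ±1 SD (n = 4 arrays a group), and each panel has its own axis range. In Ndufv3, Ndufa11, Ndufb3, Ndufs4 and Ndufaf1 every CB1KO_HFHS array lies below every WT_HFHS array; in Ndufb2 and Ndufaf3 the groups overlap throughout.

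The interaction asks whether the genotype difference was another on HFHS than on SD, and is the test of the contrast between the diets. It was negative for 39 of 40 genes, with a median of -0.23 beside -0.01 for all genes, of which 51.4% were negative. None was called, as was the case for all genes (0%), and 3 members had an unadjusted p under 0.05, all negative (1.45% of all genes): Ndufa11 (-0.50 ± 0.21), Ndufb3 (-0.53 ± 0.22) and Ndufs8 (-0.54 ± 0.24). Next was Ndufs1 at -0.42 ± 0.21. The adjusted p values of these genes were all close to 1. In Ndufs8, the genotype difference was 0.16 ± 0.17 on SD and -0.39 ± 0.17 on HFHS, and in Ndufb3 0.12 ± 0.16 and -0.41 ± 0.16. Single arrays moved the count at an unadjusted p under 0.05. Without CB1KO_SD replicate 2 it was 14 of 40, beside 3.62% of all genes, with a median of -0.34, and without both arrays of unusual spread it was 11, beside 3.5%, with a median of -0.29. It was 18 with array weights, beside 7.04%, and 12 with background correction and quantile normalization, beside 2.33%. It was 5 without WT_HFHS replicate 1, beside 1.35% of all genes. The count was 1 without WT_SD replicate 1 (1.22%), CB1KO_SD replicate 1 (1.72%) or WT_HFHS replicate 2 (0.987%). It was 0 without WT_SD replicate 4 (1.2%), CB1KO_SD replicate 3 (1.13%), WT_HFHS replicate 3 (0.918%), CB1KO_HFHS replicate 1 (1.08%) or CB1KO_HFHS replicate 3 (1.13%). The median without CB1KO_HFHS replicate 1 was -0.18. A difference between the diets in the genotype effect on these genes was not shown.

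Averaged over both diets, 38 of 40 genes had a negative genotype difference, as did 71.3% of all genes, with medians of -0.14 and -0.12. None of the 40 was called, against 0.708% of all genes, and 5 had an unadjusted p under 0.05, all negative, against 10.4% of all genes. The smallest p values were those of Ndufb7 (-0.27 ± 0.09, adjusted p = 0.212), Ndufb9 (-0.23 ± 0.09), Ndufb4 (-0.26 ± 0.10) and Ndufv3 (-0.25 ± 0.10). Without CB1KO_SD replicate 2 the median was -0.09, with 31 below 0, beside 69.7% of all genes. The count at an unadjusted p under 0.05 was then 3, beside 17.3%. Without CB1KO_HFHS replicate 1 the median was -0.13 and the count 4, beside 9.52%. Other single arrays moved this count from 5 to between 2 and 12. It was 2 without WT_SD replicate 2 (11.2% of all genes) or CB1KO_SD replicate 1 (8.62%), and 12 without CB1KO_SD replicate 4 (10.6%). Without CB1KO_SD replicate 3 it was 9 (11.9%), and without WT_HFHS replicate 1 it was 11 (9.42%). The count was 3 without CB1KO_HFHS replicate 3 (9.47%), CB1KO_HFHS replicate 4 (8.33%) or WT_HFHS replicate 4 (8.04%). Scaling mattered for the direction: with background correction and quantile normalization 26 of 40 were below 0 (56% of all genes), with a median of -0.03. With quantile normalization alone 29 were below 0 (57.5%), again with a median of -0.03. With array weights 31 were below 0 (68.1%), with a median of -0.08.

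The diet comparisons use the same arrays as those above, and slide changes with diet in them. In WT muscle 6 of the 40 genes had a lower mean on HFHS, against 57.4% of all genes, with a median of 0.07 beside -0.05 for all genes; 0 were called, as among all genes (0%). The direction turned with the deposited scores, where 31 were lower, against 47.1% of all genes, with a median of -0.19; 17 were lower with the signal SD as covariate (48.1%) or without WT_HFHS replicate 3 (58.8%). Ndufab1 alone had an unadjusted p under 0.05 (0.32 ± 0.15; 2.09% of all genes were higher by this rule), with 0.03, 0.44, 0.66 and 0.38 in WT_SD and 0.56, 0.79, 0.90 and 0.57 in WT_HFHS. These overlapped in 1 WT_SD array, replicate 3. Ndufb3 (0.25 ± 0.16), Ndufc2 (0.25 ± 0.16) and Ndufa11 (0.22 ± 0.15) followed. In CB1KO muscle 37 of 40 genes had a lower mean on HFHS, against 57.5% of all genes, with a median of -0.16 beside -0.06; 0 of 40 were called, against 0.0276% of all genes. Ndufb9 (-0.29 ± 0.12, adjusted p = 0.47) and Ndufs4 (-0.33 ± 0.14) had an unadjusted p under 0.05 (4.08% of all genes were lower by this rule), and Ndufs8 (-0.34 ± 0.17) and Ndufs1 (-0.29 ± 0.15) came next. Without CB1KO_SD replicate 2 all 40 were below 0 (53.8% of all genes), with a median of -0.26. The count of 2 was then 13, beside 5.07% of all genes. It was 8 without both arrays of unusual spread (4.09%), 17 with array weights (6.52%) and 11 with the deposited scores (3.43%). It was 0 without CB1KO_SD replicate 3 (4.07%) or 4 (5.05%) or without CB1KO_HFHS replicate 1 (2.23%) or 3 (4.11%). It was 1 without CB1KO_SD replicate 1 (5.69%) or CB1KO_HFHS replicate 4 (3.94%). No member's groups were separate in either diet comparison; among all genes 2.19% were separate and higher on HFHS and 3.34% lower in WT, and 2.56% and 1.2% in CB1KO.

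The 40 genes tended to be high or low together on an array. For each gene, its 16 values were set against the median of the other 39, and Pearson's r was above 0.8 in 27 genes, with a median of 0.85 and a range of 0.11 (Ndufaf3) to 0.97 (Ndufb8); the values share each array's scaling, and r is given as a description. On WT_SD replicate 2, 38 of the 40 lay above their own 16-array mean, on CB1KO_SD replicate 2 none, and on WT_HFHS replicate 2 all 40. In WT_HFHS the number was 9, 40, 37 and 31 over replicates 1 to 4. In CB1KO_HFHS it was 1, 9, 6 and 5, so all 4 of its arrays sat on the low side. For 26 of the 40 genes every CB1KO_HFHS array lay below the gene's mean, as in 12.8% of all genes. The members' median deviation from the mean was -0.08, 0.20, 0.25 and 0.09 in WT_HFHS and -0.25, -0.06, -0.14 and -0.16 in CB1KO_HFHS, so WT_HFHS replicate 1 lay below CB1KO_HFHS replicate 2. In CB1KO_SD it spanned -0.27 to 0.22.

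**Figure D3:**
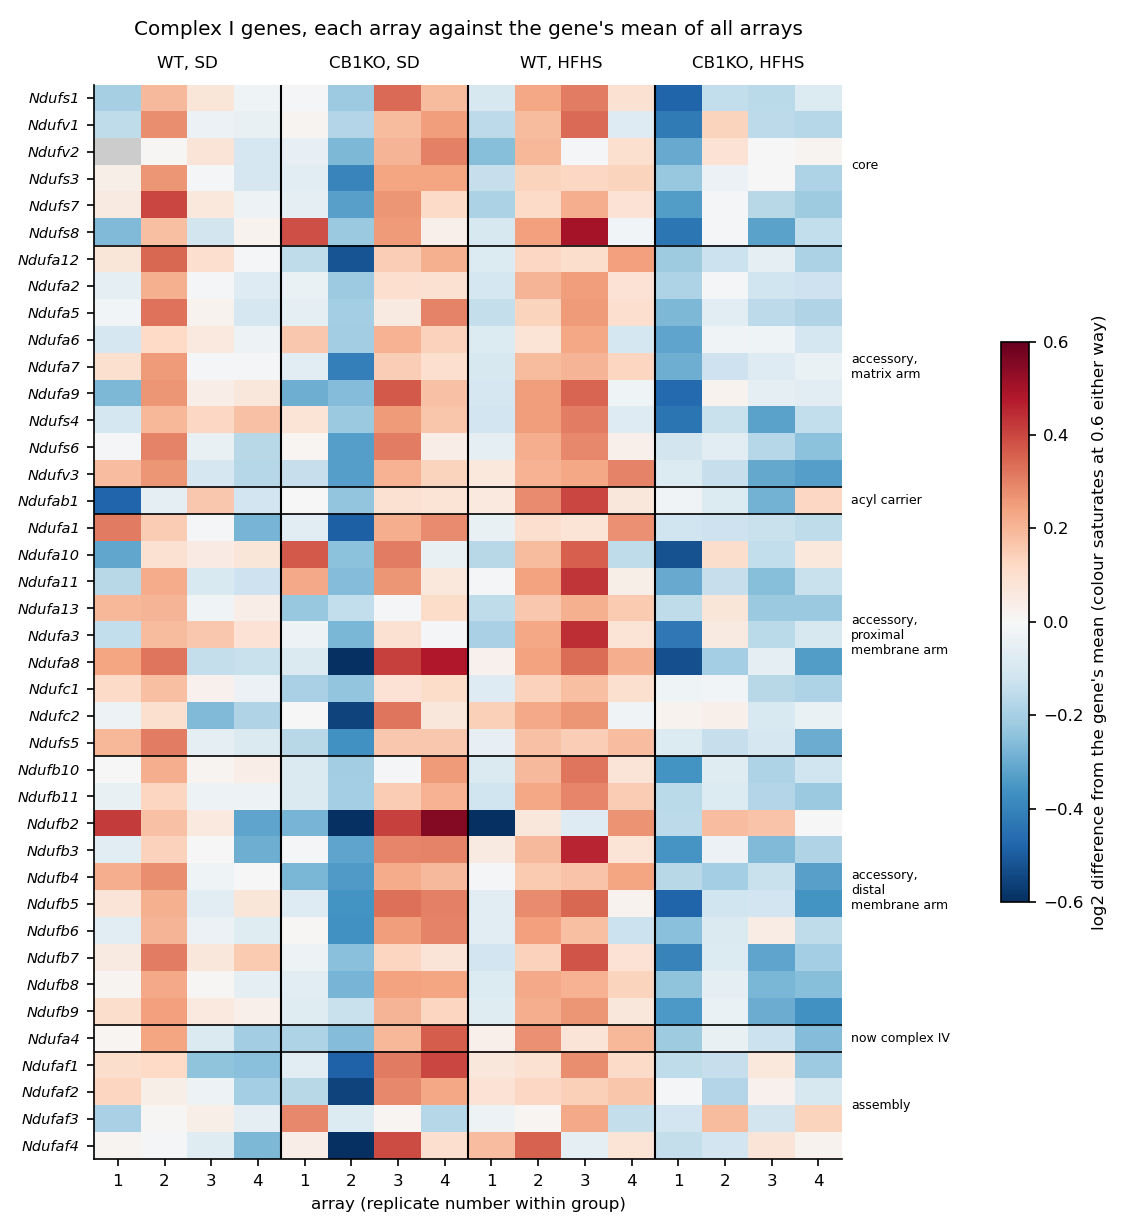
Scaled log2 signal of each of the 40 genes (rows, grouped by role) on each of the 16 arrays (columns, by group and replicate), as the difference from the gene's own mean; red is above the mean, blue below, and grey marks the missing Ndufv2 value. Whole columns share a colour: CB1KO_SD replicate 2 is blue in all 40 rows and WT_HFHS replicate 2 above the mean in all 40, and the 4 CB1KO_HFHS columns are mostly blue.

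The members were steady genes. Their pooled SD within groups had a median of 0.19, from 0.13 in Ndufc1 to 0.41 in Ndufb2, against 0.35 for all genes and 0.22 for the tenth of genes with the highest signal, to which most of them belong.

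The other complexes of the chain, taken as lists for comparison, had like medians on HFHS. The median genotype difference was -0.20 for complex II (8 genes), -0.25 for complex III (12), -0.23 for complex IV (23) and -0.22 for ATP synthase (17), and 0 genes of any of them were called. On SD these medians lay between 0.01 and 0.14. Among 15 further complex I genes that were measured, mostly other assembly factors, 12 were negative on HFHS, beside 67.7% of all genes. Their median was -0.16, and 2 had an unadjusted p under 0.05, where 5.48% of all genes were lower by this rule. These were Ndufaf6 (-0.40 ± 0.17, limma, adjusted p = 0.497) and Dmac2 (-0.39 ± 0.18). The subunits encoded by mitochondrial DNA were not analysed here. Whether complex I differed from these lists was not tested.

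**Figure D4:**
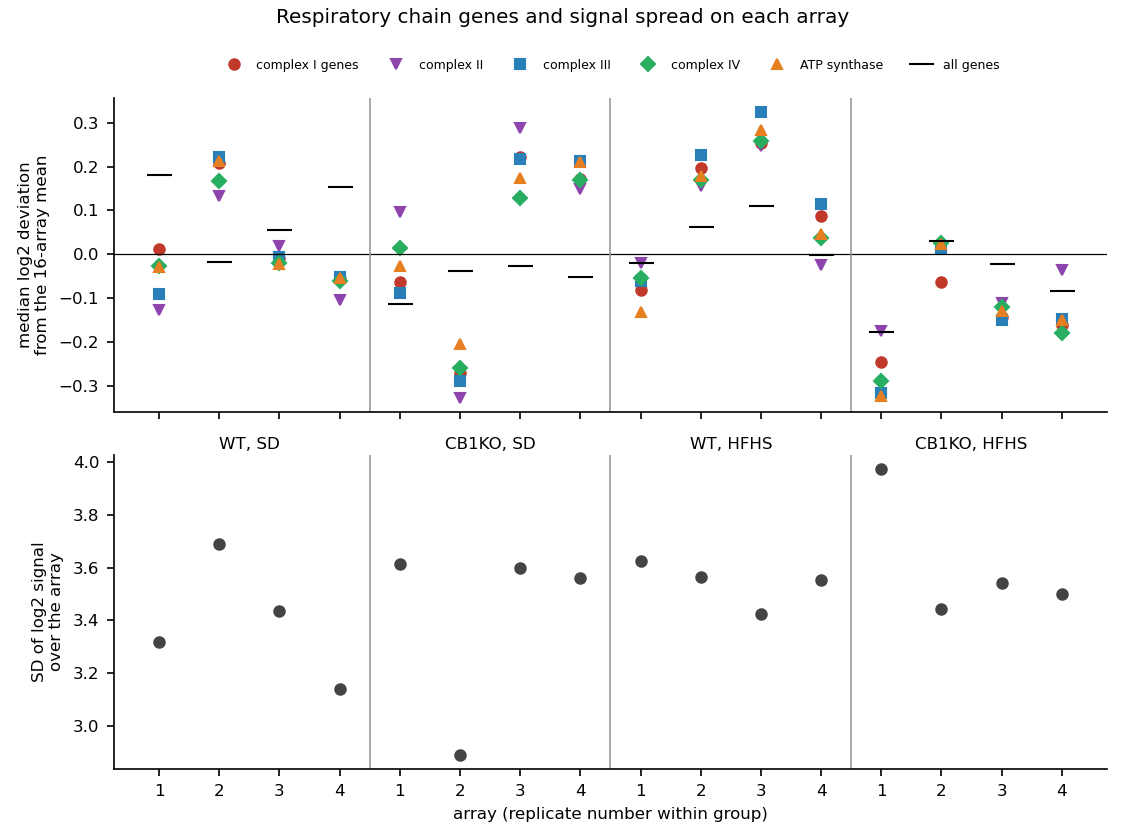
Upper panel, for each array, the median log2 deviation from the 16-array mean over the 40 complex I genes, the genes of complexes II, III and IV and ATP synthase, and all genes (dashes); lower panel, the SD of log2 signal over the array. Complex I is lowest on CB1KO_SD replicate 2 (-0.27) and CB1KO_HFHS replicate 1 (-0.25), the arrays with the smallest (2.89) and largest (3.97) signal spread.

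The HFHS counts shifted with single arrays. Without CB1KO_HFHS replicate 1 the median difference of the 40 genes was -0.23, with 37 below 0 (58.5% of all genes) and 13 with separate groups (11% of all genes), and 4 rather than 13 had an unadjusted p under 0.05, beside 4.83% of all genes. Without WT_HFHS replicate 3, which had the highest complex I signal, that number was 2 of 40, near the 4.72% of all genes, and the median -0.21; it was 5 without WT_HFHS replicate 2, beside 3.59%, and 8 without CB1KO_HFHS replicate 4, beside 4.06%. Without WT_HFHS replicate 1, the lowest WT array, the median was -0.32, and 28 genes had separate groups, beside 9.77% of all genes; without CB1KO_HFHS replicate 2 it was 21, beside 10.9%. Scaling mattered as well. With quantile normalization, which forces all arrays to the same spread, the members' median on HFHS was -0.15 and that of all genes -0.04. Separate groups were then seen in 12 members, beside 5.57% of all genes, but these were partly other genes. Only Ndufa1, Ndufa4, Ndufa8, Ndufb4, Ndufs5 and Ndufv3 were separate under both scalings. Ndufa11, Ndufb3, Ndufb5, Ndufs4, Ndufs6, Ndufaf1 and Ndufaf2 overlapped with quantile normalization. The median of all genes itself moved from -0.13 to -0.02 with background correction and quantile normalization. Arrays were also weighted by their quality in the fit, with weights of 0.129 for CB1KO_SD replicate 2 and 0.285 for CB1KO_HFHS replicate 1. Then 5 members were called, all lower in CB1KO on HFHS. Of all genes, 4.75% were called lower and 7.87% in either direction. The 5 members were Ndufv3 (-0.45, limma, adjusted p = 0.0131), Ndufb9, Ndufa11, Ndufb8 and Ndufb3. No other setting that was run called a member in any comparison, and the lowest adjusted p among the others on HFHS was 0.0787.

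**Figure D5:**
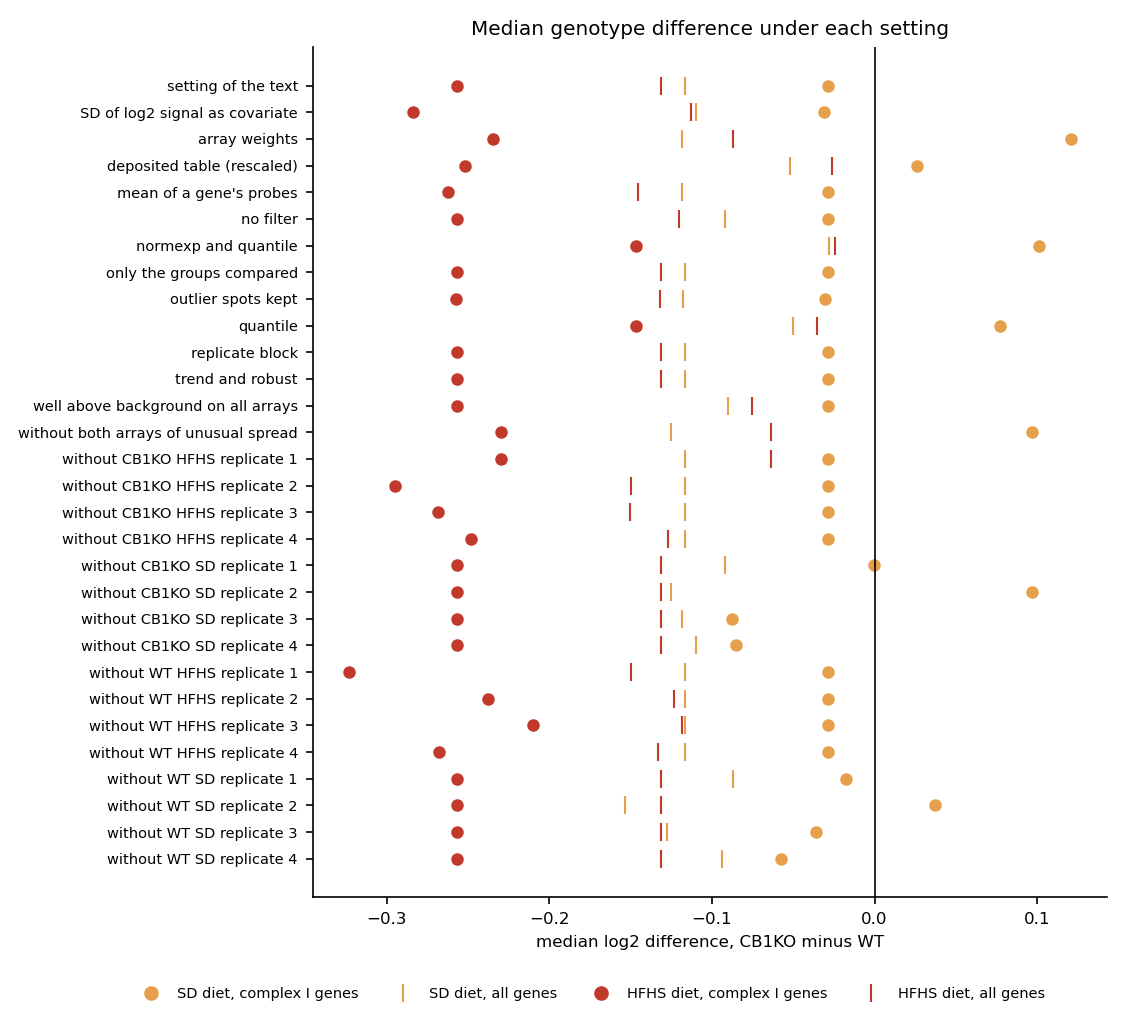
Median genotype difference (CB1KO minus WT, log2 scale) of the 40 complex I genes (dots) and of all genes (ticks) on SD and HFHS under each setting of the processing and with each array left out. On HFHS the dots stay below 0 and left of the ticks of the same setting in all of them, from -0.32 to -0.15; on SD they lie on both sides of 0.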

How the data were processed

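Mouse muscle RNA was measured in 16 samples on 1-colour Agilent arrays. The deposited scanner files hold spot intensity values that the authors' Feature Extraction 11.5.1.1, per the file headers, corrected for background within the array. The deposited series table holds a score; checked against the scanner files, it was each array's log2 intensity centred and divided by its SD. Per the labels' protocols, total RNA was extracted with TRIzol and labelled with Cy3. Here the log2 processed intensity minus the array's 75th percentile was used. Outlier spots were set missing, spots of a probe averaged, probes kept that stood above background on 4 or more of 16 arrays, and the brightest probe stood for a gene (28972 genes; symbols from RefSeq GRCm38.p6 through accessions, for 28026 of 55681 probes).

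One mean per group was fitted over all arrays with limma 3.58.1 in R 4.3.3 (lmFit, eBayes; two-sided; Benjamini-Hochberg over all genes; threshold 0.05) after a check on simulated data. Values of a gene's other probe come from the same model fitted over probes. The number of arrays limits the precision. The 40 members, the lists and the tests were chosen with earlier results of these data known. Full statistics were given for members past the threshold, the 4 of smallest p in each comparison, and those with separate groups. Alternatives covered background correction, scaling, filters, outlier spots, probes, variance model, array quality, slide, replicate number and each array left out. The counts of separate groups and of unadjusted p under these alternatives were added after seeing the data. One further complex I gene is not reported here.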

Additional observations from a re-analysis of the deposited data

Results flagged for a closer look

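Groups of 4 arrays were checked for an array far from the others, in each of 163 combinations of a gene (or the members' median) and a group. Chance flags about 1 in 20 such groups, and 8 (4.91%) were flagged. Of these, 3 concern WT_HFHS replicate 1, which was far below the other WT_HFHS arrays for Ndufa13 (8.62, the nearest at 8.93), Ndufs3 (7.70, nearest 7.96) and Ndufs5 (7.23, nearest 7.43). WT_SD replicate 2 was far above for Ndufb6 (6.60, nearest 6.36) and Ndufb11 (8.001, nearest 7.84). WT_SD replicate 1 was far below for Ndufa10 (5.09, nearest 5.45), CB1KO_SD replicate 2 far below for Ndufa6 (6.43, nearest 6.78), and CB1KO_HFHS replicate 2 far above for Ndufb8 (8.12, nearest 7.93). All values are scaled log2 signals. No member met a rule for a difference between groups.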

How the results depend on the processing

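Of 173 alternative counts of members called, over 6 comparisons, 172 stayed at 0 and 1 was 5 (array weights, HFHS). Of 173 alternative medians, 171 moved by less than the within-group SD of the members' median (0.15). With the deposited scores, rescaled, the median for HFHS against SD was -0.45 in CB1KO and -0.19 in WT, against -0.16 and 0.07. Smaller moves could still turn the sign: with array weights the median genotype difference on SD was 0.12, against -0.03. Leaving out single arrays moved the median genotype difference between -0.09 and 0.10 on SD (lowest without CB1KO_SD replicate 3, highest without replicate 2), and between -0.32 and -0.21 on HFHS. On SD, 4 values of named genes reversed sign: Ndufa13 to 0.056 with background correction and quantile normalization and to 0.00177 with quantile normalization, Ndufb7 to 0.029 with the former, and Ndufb4 to 0.023 with array weights; the cause was not tested. The HFHS count of members lower at an unadjusted p under 0.05, 13, was 1 of 40 with the deposited scores, beside 3.65% of all genes, and 26 with array weights, beside 15.6%. Over all genes, the 68 called on HFHS were 2281 with array weights, 355 with the signal SD as covariate, 193 without both arrays of unusual spread and 36 with replicate block. With replicate number as a block, the HFHS median was -0.26, the lowest adjusted p of a member 0.462 and the count still 0; the pairing was not borne out, since same-numbered arrays correlated between -0.75 and 0.61 (8 of 24 pairs above 0.1), like other pairs, and the block is also the slide column. Every member stood well above background on all arrays; the dimmest, Ndufab1, lay at the 64.4th percentile of mean signal over all genes.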

Other observations

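Among 16 regulators of mitochondrial genes taken as a list, 12 were negative on HFHS in CB1KO against WT, as were 67.7% of all genes. An unadjusted p under 0.05 was seen in 1 of the 16, where 5.48% of all genes were lower by this rule. It was Esrra, which encodes ERR alpha, at -0.55 ± 0.18 (limma, adjusted p = 0.309). Gabpa, encoding a GABP subunit, had -0.30 ± 0.17 and Esrrg -1.03 ± 0.60. On SD, Ppara, a nuclear receptor for fatty acids, had 1.06 ± 0.42 (adjusted p = 0.495) and Ppargc1a, encoding the coactivator PGC-1 alpha, 0.41 ± 0.18 (adjusted p = 0.536). None of the 16 was called in either comparison.

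In ATP synthase, the assembly factor gene Atpaf1 had the smallest p on HFHS among the 17 genes, at -0.65 ± 0.18 (adjusted p = 0.208). In complex III it was Uqcrfs1, the Rieske iron-sulfur subunit, at -0.40 ± 0.15 (adjusted p = 0.446), and in complex IV Cox5b at -0.45 ± 0.17 (adjusted p = 0.452).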
